A study of Homo sapiens with 42 samples.

Results

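AC16 is a human cell line described in its labels as cardiomyocyte-like. The comparison reported here is between 2 of its derivatives, labelled R161W and T189M, with 3 whole-cell polyA RNA libraries each, 6 of the 30 whole-cell libraries of the series. Cells of both groups carry a lentiviral, doxycycline-inducible hairpin against RPL3 (shRPL3), kept by hygromycin selection, and on top of it a second lentiviral construct for RPL3L with the substitution that names the group, kept by sorting for BV421 fluorescence. Both groups received doxycycline at 1 ug/ml, so that the hairpin, the doxycycline and an RPL3L construct are common to all 6 libraries. The other groups used beside them are shScramble (a scrambled hairpin), shRPL3 (the RPL3 hairpin alone), RPL3L-WT (the RPL3 hairpin with wild-type RPL3L) and the same hairpin with RPL3L carrying P291L, G27D, D308N, D308V or R343W, again with 3 libraries each. Each group is a selected pool of 1 cell line. The labels do not call the 3 libraries of a group separate cultures, so p-values here measure only the spread between these samples, which may be technical. Of 60606 gene entries, the 14424 with a mean of at least 1 TPM (a level already scaled for transcript length) over the 6 libraries were compared.

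RPL3 is a protein of the large ribosomal subunit that reaches into the peptidyl transferase centre. In heart and skeletal muscle it is replaced in part by its paralog RPL3L, and RPL3L variants have been found in children with dilated cardiomyopathy. RPL3 and RPL3L are regulated against each other in muscle, where loss of RPL3L raises RPL3.

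The reference coding sequence around the substituted codons shows what the constructs change, and the matching stretch of RPL3 shows how alike the paralogs are there. The codon of R161W in RPL3L lies in exon 4 at chr16:1950862-1950864 and that of T189M in exon 5 at chr16:1947315-1947317, both on the minus strand (GRCh38, GENCODE 29). The aligned codons of RPL3 have the same numbers and lie at chr22:39316724-39316726 and chr22:39315490-39315492, also on the minus strand. Each line gives 27 bases of the reference transcript, 5′ to 3′, with the codon in capitals and 12 bases on each side.
RPL3L at the R161W codon: tgcaaggtcattCGGgtcattgtccac
RPL3 at the R161W codon: tgccaagtcatcCGTgtcattgcccac
RPL3L at the T189M codon: ctgaacggtggcACGgtggccgagaag
RPL3 at the T189M codon: gtgaacggaggcACTgtggccgagaag
RPL3 encodes the same residue as RPL3L at both codons, arginine at the first and threonine at the other, and over 402 aligned residues of the 407-codon and 403-codon reference proteins 313 (77.9%) are identical. The TPM give no sequence, so the substitutions themselves were not checked in the libraries.

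The 30 libraries fall into 2 kinds, told apart by the level of 37 ribosomal protein pseudogenes and by the ratio of the 2 marker entries of the RPL3L construct, EBFP2 to rtTA3, which was 1.43 to 1.57 in the 6 libraries of the second kind and 0.971 to 1.05 in the 18 RPL3L-construct libraries of the first. R161W 1, T189M 1 and T189M 2 are of the second kind and R161W 2, R161W 3 and T189M 3 of the first. The split crosses the groups unevenly, so each gene below was fitted with a term for the kind and each direction was also read within the kinds. TPM keep no depth, and the depth of the whole-cell libraries is unknown. Few markers that define the labelled cell type were present: of 26 cardiomyocyte genes, 19 were under 1 TPM in all 6 libraries. ATP2A2 was the highest of them, and the summed level of the list was 194 to 223 TPM in R161W and 222 to 268 TPM in T189M. Skeletal muscle markers summed to at most 1.50 TPM and endothelial markers to at most 2.73 TPM, whereas fibroblast markers summed to 4737 to 5550 TPM in R161W and 5417 to 5955 TPM in T189M, led by VIM.

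RPL3 itself was higher in R161W than in T189M. It was at 1059, 1686 and 1570 TPM in R161W and 779.7, 802 and 1246 TPM in T189M. The lowest R161W library lies below the highest T189M library, but these are of different kinds, and within each kind every R161W library lies above every T189M library. With the kind term the difference was 0.40 on the log2 scale (SE 0.0368, adjusted p = 3.7e-08, limma with Benjamini-Hochberg adjustment over the genes tested), and by kind it was 0.39 in the first kind and 0.42 in the second. The level goes against the hairpin label in R161W: shScramble, which lacks the RPL3 hairpin, held 1534 to 1611 TPM, all of the first kind, and the 2 R161W libraries of that kind held 1570 and 1686 TPM. T189M lies between, since its library of the first kind held 1246 TPM, whereas first-kind libraries of the other RPL3L groups held 568 to 737 TPM and the shRPL3 libraries 500 to 570 TPM. In the second kind the other groups held 439 to 449 TPM, below R161W 1 at 1059 TPM and the 2 T189M libraries at 779.7 and 802 TPM. Names of groups therefore stand for the libraries so labelled. The hairpin entry of the table was present in both groups, at 11.8, 15.4 and 13.4 TPM in R161W and 17.9, 28.3 and 16.9 TPM in T189M, with 5.63 to 10.4 TPM in shRPL3 and 0 in shScramble.

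RPL3L was at 2672, 3048 and 3373 TPM in R161W and 2190, 2145 and 3055 TPM in T189M. Within each kind the R161W libraries reached further up, except that R161W 2 and T189M 3 were level at 3048 and 3055 TPM. Its log2 fold change was 0.20 (SE 1.08, adjusted p = 0.93). The wide error comes with shRPL3 3, a library labelled hairpin-only that held 121 TPM of RPL3L beside 0.0290 TPM at the lowest in its group. It also held the construct markers EBFP2 at 434 TPM and rtTA3 at 428 TPM. In shRPL3 1 and shRPL3 2 neither marker exceeded 0.217 TPM. Without that library the same fold change had an adjusted p of 0.014, and in a fit of the 6 libraries with the kind term it was 0.19 with an adjusted p of 0.16. The marker entries of the construct ran from 10730 to 15830 TPM for EBFP2 over the 6 libraries.

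**Figure D1:**
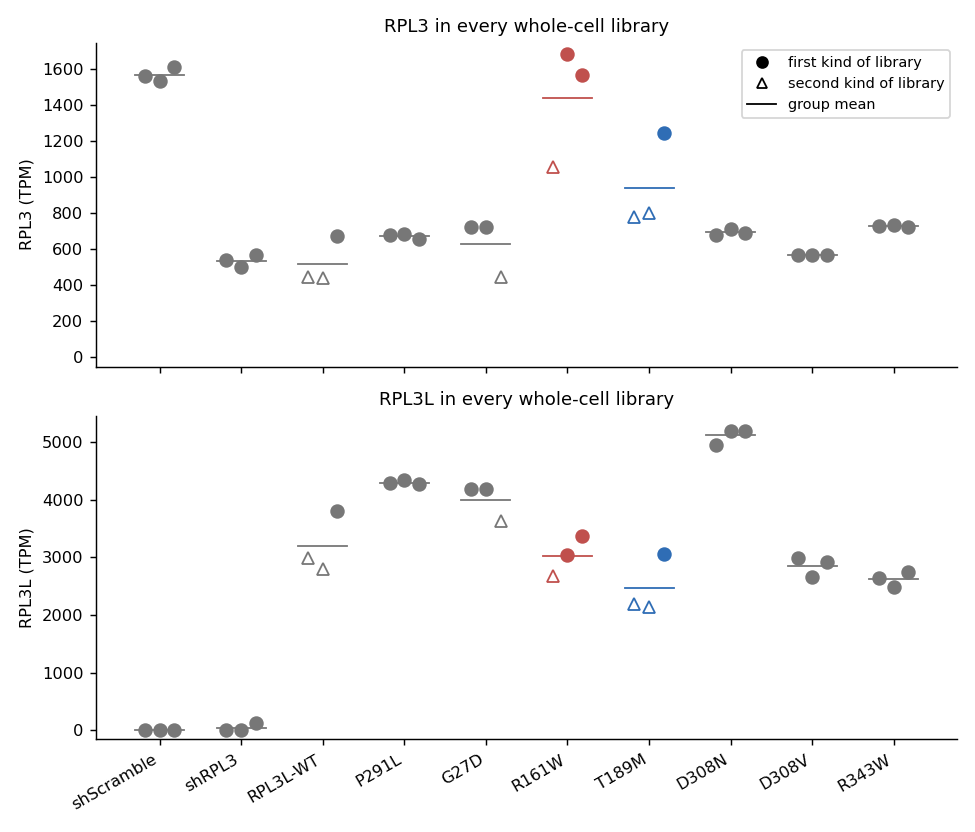
RPL3 (upper panel) and RPL3L (lower panel) in TPM in each of the 30 whole-cell libraries by group, with filled circles for the first kind of library, open triangles for the second and a line for the group mean. R161W at 1059 to 1686 TPM and T189M at 779.7 to 1246 TPM stand above the other groups with the RPL3 hairpin, and both carry RPL3L at 2145 to 3373 TPM.

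With the kind term, R161W exceeded T189M in 1005 genes and fell below it in 1073, 6.97% and 7.44% of the 14424 tested. The median fold change of all tested genes was 0.01. Most differences were small: the median size was 0.36 among the higher genes and 0.29 among the lower ones, and 47 and 38 reached a log2 fold change of 1. Of the called genes, 983 higher (97.8%) and 1045 lower (97.4%) had every R161W library on the same side of every T189M library within each kind, where 22.2% and 20.1% of all tested genes had this separation above and below. The calls were made from these same libraries, so the larger share among them is no separate check. Without regard to kind, every R161W library lay above every T189M library in 9.44% of the tested genes and below in 6.45%. Without the kind term 630 genes (4.37%) were higher and 400 (2.77%) lower, and 622 and 400 of them were among the calls with it. A fit of the 6 libraries alone with the kind term gave 279 (1.93%) and 323 (2.24%), of which 268 and 311 were among the calls. Leaving out T189M 3, the only T189M library of the first kind, left 623 and 626, and leaving out R161W 1, the only R161W library of the second kind, left 635 higher genes. Median-ratio scaling gave 955 (6.62%) and 1241 (8.6%). In bulk RNA, fewer cells that express a gene and less RNA per cell cannot be told apart.

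The difference between R161W and T189M itself differed between the kinds for 17 genes (0.118% of those tested, limma interaction term), of which 4 were protein-coding. Many of the others were non-coding entries above 0 in 1 library alone, such as TMSB4XP6 (77.9 TPM in R161W 1) and RNU7-107P (10.68 TPM in T189M 3). R161W 1 and T189M 3 are each the only library of their group in their kind, so such calls rest on 1 library. MCCC1, a subunit of a leucine-breakdown enzyme, was at 23.7, 15.4 and 17.7 TPM in R161W and 13.9, 13.5 and 18.01 TPM in T189M. SNRNP25, a protein of the minor spliceosome, was at 60.5, 61.5 and 57.8 TPM in R161W and 36.5, 39.2 and 57.8 TPM in T189M. Both were higher in R161W in the second kind of library and near level in the first. FAM81A and GTF2IRD2B, the latter with near-identical copies that share its reads, were the other protein-coding genes, lower in R161W 1 than in the T189M libraries of its kind. In the first kind GTF2IRD2B went the other way, at 9.845 and 9.708 TPM in R161W 2 and 3 and 4.297 TPM in T189M 3.

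**Figure D2:**
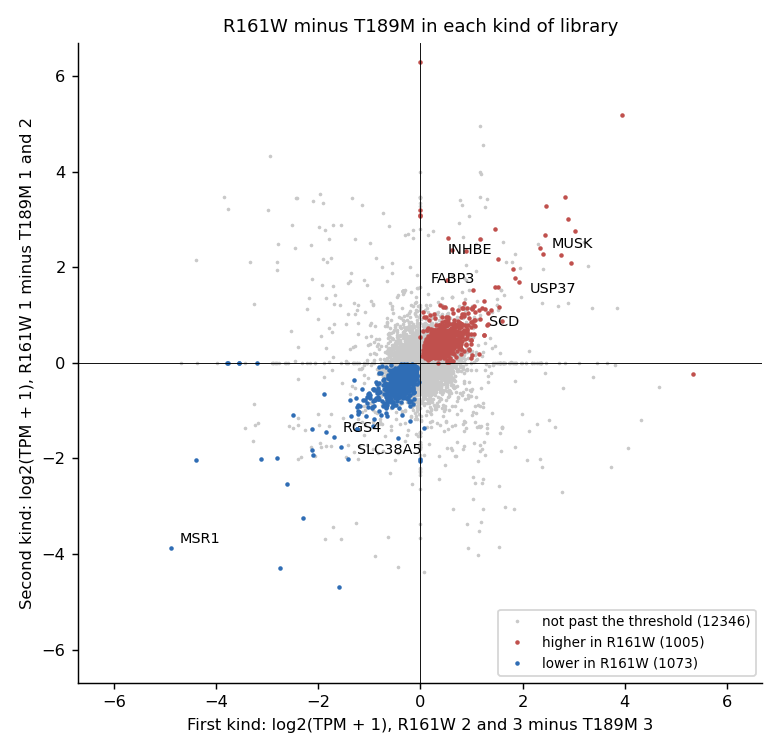
Each point is 1 of the 14424 tested genes, with the R161W minus T189M difference on the log2(TPM + 1) scale in the first kind of library on the horizontal axis and in the second kind on the vertical axis. The 1005 genes higher in R161W and the 1073 lower lie almost all in the quadrants where both kinds have the same sign, and MSR1 stands apart at the lower left.

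Some genes set R161W apart from every other group. MUSK, the receptor tyrosine kinase of the neuromuscular junction, was at 4.25, 5.96 and 5.6 TPM in R161W and 0, 0.17 and 0.29 TPM in T189M (log2 fold change 2.38, SE 0.148, adjusted p = 5.5e-11). No library of the 24 in the other 8 groups held more than 0.615 TPM. USP37, a deubiquitinase active in the cell cycle, was at 29, 38 and 42.4 TPM in R161W and 9.08, 7.67 and 9.76 TPM in T189M (log2 fold change 1.81, SE 0.0992, adjusted p = 1.2e-11), with 6.84 to 15.1 TPM in the other 24. MANEA, an endo-mannosidase of the Golgi that trims N-glycans, was at 14.3, 21.5 and 19.1 TPM in R161W and 5.66, 4.83 and 8.01 TPM in T189M (log2 fold change 1.28, SE 0.12, adjusted p = 5.2e-08), with 2.72 to 10.5 TPM in the others. All 3 R161W libraries lay above the other 24 for each of these genes, and for USP37 and MANEA the T189M libraries lay within the range of those 24. MUSK is annotated at chr9:110668791-110806558, USP37 at chr2:218450251-218568351 and MANEA at chr6:95577535-95609452 (RefSeq, GRCh38.p14). Over all genes, all 3 R161W libraries lay above the other 24 in 112 of those tested (0.776%) and below them in 86 (0.596%); for T189M these counts were 57 (0.395%) and 38 (0.263%). Among the 1005 higher genes 60 had R161W above the other 24 libraries and 15 had T189M below them.

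INHBE, which encodes the beta-E chain of activin and is induced in amino acid stress, was at 6.32, 8.65 and 7.96 TPM in R161W and 0.985, 0.776 and 1.65 TPM in T189M (log2 fold change 1.92, SE 0.172, adjusted p = 2.5e-08). ACTA2, smooth muscle actin, was at 13.5, 13.4 and 15.4 TPM in R161W and 5.42, 5.48 and 4.3 TPM in T189M (log2 fold change 1.29, SE 0.161, adjusted p = 4.0e-06). Both also had R161W above all of the other 24 libraries. FABP3, the fatty acid binding protein of heart muscle, was at 13.3, 14.3 and 12.3 TPM in R161W and 4.24, 3.37 and 4.14 TPM in T189M (log2 fold change 1.48, SE 0.154, adjusted p = 2.7e-07). CEBPD, a transcription factor of the acute-phase response, was at 35, 39.5 and 38.9 TPM in R161W and 14.9, 16.5 and 14.4 TPM in T189M (log2 fold change 1.30, SE 0.14, adjusted p = 4.6e-07). The 3 R161W libraries of each of these genes lay above the 3 T189M libraries without overlap. CPZ, a secreted carboxypeptidase, was at 8.41, 9.28 and 12.1 TPM in R161W and 3.16, 3.43 and 3.81 TPM in T189M (log2 fold change 1.18, adjusted p = 5.8e-06). TEX29, a testis-expressed gene, was at 6.94, 4.59 and 3.5 TPM in R161W and 1.87, 0.977 and 2.5 TPM in T189M (log2 fold change 1.14, adjusted p = 6.7e-04), but in the fit of 6 libraries its adjusted p was 0.1.

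Entries for 4 microRNA hairpins came out higher as well, although polyA selection does not capture a mature microRNA. MIR27B, MIR4672 and MIR4324 were listed at 0 in all T189M libraries and at 3.23 to 9.98 TPM in R161W. MIR4728 was at 13.9, 6.6 and 2.83 TPM in R161W and 0, 4.4 and 0 TPM in T189M, and its call was lost in the fit of 6 libraries (adjusted p = 0.19) and without the kind term (adjusted p = 0.14). Other groups reached 20.5 TPM for MIR27B, so R161W did not stand apart there. MIR3153 was lower in R161W, at 0, 5.33 and 24.4 TPM in R161W and 28.6, 21.8 and 37.3 TPM in T189M, and its call was lost in the same fits (adjusted p = 0.22 and 0.078). These entries are short, the number of reads behind them is unknown, and reads of a host transcript that overlaps one cannot be told apart here.

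MSR1 had the lowest value for R161W relative to T189M. It encodes a class A scavenger receptor known from macrophages, and it was at 2.2, 1.17 and 2.34 TPM in R161W and 46.3, 45.9 and 78.8 TPM in T189M (log2 fold change -4.41, SE 0.224, adjusted p = 6.2e-12). Here T189M is the group that stands apart: the other 24 libraries held 0.59 to 3.75 TPM. Macrophage and other immune markers were at or near 0 in these libraries apart from CD68, with 8 of 10 under 1 TPM in all 6 and CD3E at 0. Summed, that list was at 95.9 to 200 TPM in R161W and 132 to 248 TPM in T189M, nearly all of it CD68.

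RGS4, a brake on G-protein signalling, was at 23.2, 14.8 and 21.5 TPM in R161W and 70.6, 69.96 and 60.05 TPM in T189M (log2 fold change -1.65, SE 0.101, adjusted p = 4.6e-11). SLC38A5, a glutamine and glycine transporter, was at 3.26, 4.06 and 4.89 TPM in R161W and 14.9, 17.6 and 13.6 TPM in T189M (log2 fold change -1.68, SE 0.196, adjusted p = 1.6e-06). SERPINB2, an inhibitor of plasminogen activators, was at 32.6, 24.6 and 25.2 TPM in R161W and 63.9, 59 and 59.5 TPM in T189M (log2 fold change -1.08, SE 0.0767, adjusted p = 5.1e-10). None of these genes overlapped between the groups. R161W was the lower group in both kinds, which the rule for naming the largest changes required. CCND1, the D1 cyclin of the G1 phase, was at 22.1, 20.6 and 23.1 TPM in R161W and 39.5, 38 and 47.2 TPM in T189M (log2 fold change -0.96, SE 0.0834, adjusted p = 1.6e-08), below the other 24 libraries in R161W (25.9 to 94.6 TPM). EDN1, endothelin-1, was at 3.0, 2.35 and 2.55 TPM in R161W and 5.85, 5.53 and 7.26 TPM in T189M (log2 fold change -0.99, adjusted p = 1.2e-06). IL24, a cytokine of the interleukin-10 family, was at 3.17, 3.61 and 4.69 TPM in R161W and 6.76, 6.92 and 10.6 TPM in T189M (log2 fold change -0.98, adjusted p = 4.7e-05). KRTAP2-3, APCDD1L-DT and LINC01291 were also among the 15 lowest, with log2 fold changes of -1.09, -1.01 and -0.93. APCDD1L-DT was above the other 24 libraries in T189M, and KRTAP2-3 and LINC01291 below them in R161W. Among the 1073 lower genes, R161W lay below all other 24 libraries for 60 and T189M above them for 32.

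**Figure D3:**
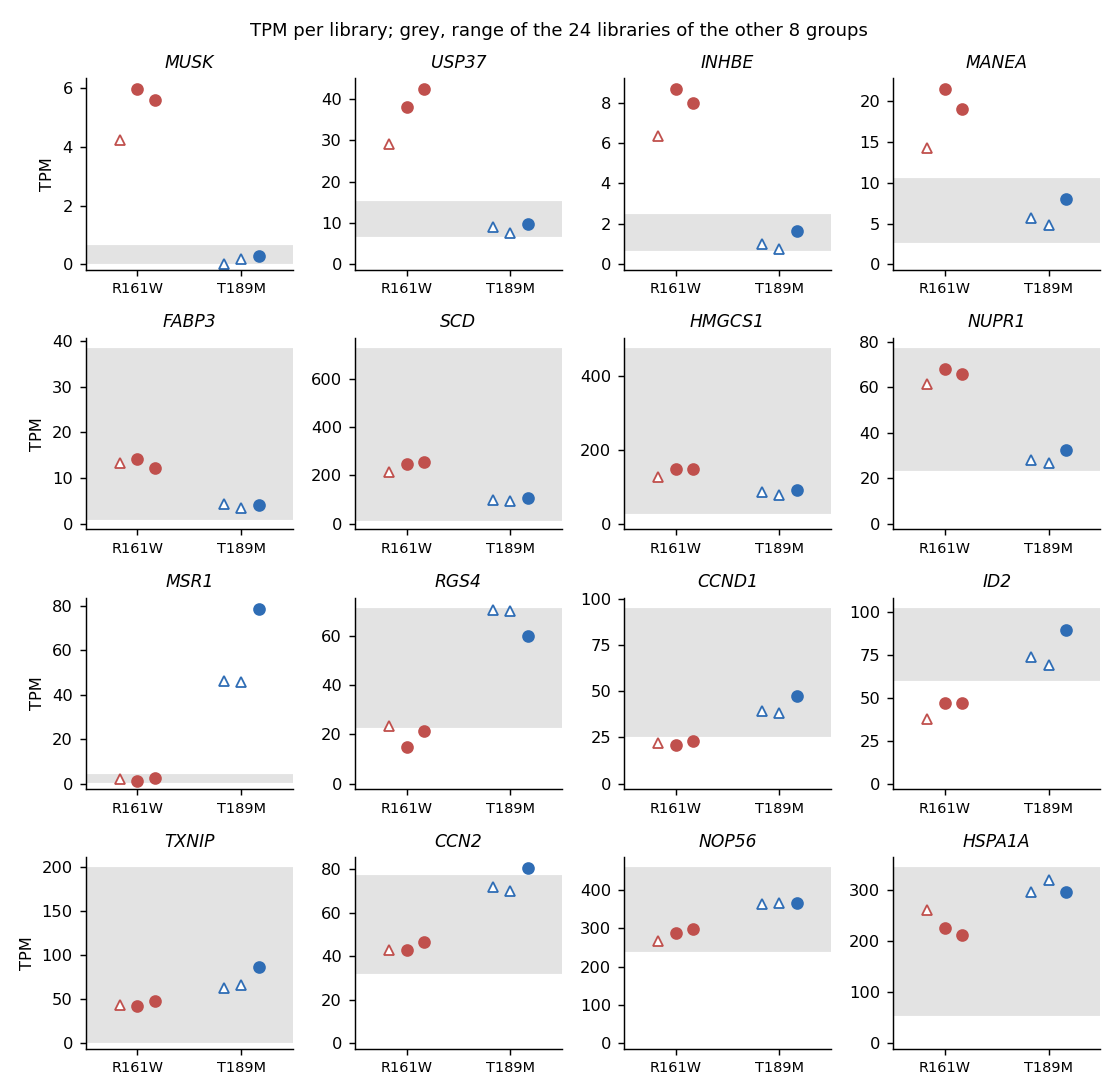
TPM of named genes in the 3 R161W and 3 T189M libraries (filled circles, first kind; open triangles, second kind), with a grey band for the lowest to the highest of the 24 libraries of the other groups. R161W leaves the band upwards for MUSK, USP37, INHBE and MANEA, and T189M leaves it upwards for MSR1, where it reaches 78.8 TPM.

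Genes of cholesterol synthesis were higher in R161W. Its enzymes turn acetyl-CoA into sterols and, with the fatty acid desaturases, answer to the SREBP transcription factors. Of 23 genes tested, 17 were higher in R161W and 0 lower, with a median log2 fold change of 0.33 beside 0.01 for all genes. All 17 had the same direction in both kinds, read in the same libraries that gave the calls. HMGCS1, which makes HMG-CoA, was at 127, 147 and 149 TPM in R161W and 86.1, 77.1 and 91.6 TPM in T189M (log2 fold change 0.67, SE 0.0598, adjusted p = 2.5e-08). TM7SF2, a sterol C14 reductase, was at 9.43, 17.2 and 16.5 TPM in R161W and 3.93, 3.72 and 7.06 TPM in T189M (log2 fold change 1.20, SE 0.169, adjusted p = 2.0e-05). Neither gene overlapped between the groups. MVK, the mevalonate kinase, and MVD, the decarboxylase further down, rose by 0.52 (SE 0.108, adjusted p = 0.0017) and 0.48 (SE 0.126, adjusted p = 0.011). In the fit of 6 libraries 11 of the 23 were higher. Higher genes made up 6.97% of all tested with all libraries and 1.93% in the fit of 6.

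Of 14 tested genes of sterol sensing, uptake and export, 7 were higher in R161W and 1 lower (median 0.33). SREBF1, which encodes the SREBP-1 transcription factors, was at 73.4, 61.5 and 64.5 TPM in R161W and 41.2, 42.3 and 36.1 TPM in T189M (log2 fold change 0.81, SE 0.131, adjusted p = 1.2e-04). INSIG1, the sterol-regulated anchor that holds SREBP in the endoplasmic reticulum, was at 116, 143 and 151 TPM in R161W and 76, 66.9 and 93 TPM in T189M (log2 fold change 0.69, SE 0.0553, adjusted p = 4.4e-09). Leaving out R161W 3 or T189M 3 gave a count of 4 higher. Over all tested genes 6.97% were higher and 7.44% lower, and 1.93% and 2.24% in the fit of 6 libraries. Of 18 genes of fatty acid synthesis and desaturation, 8 were higher and 2 lower (median 0.20), and 5 were higher in the fit of 6 libraries. The desaturases led them: SCD, which makes oleate, was at 214, 246 and 255 TPM in R161W and 98, 93.8 and 108 TPM in T189M (log2 fold change 1.19, SE 0.0688, adjusted p = 2.1e-11). FADS2, the delta-6 desaturase, was at 90.6, 120.3 and 123 TPM in R161W and 48.8, 47.5 and 58.2 TPM in T189M (log2 fold change 0.98, SE 0.0988, adjusted p = 1.7e-07). FADS1, the delta-5 desaturase, rose by 0.68 (SE 0.0621, adjusted p = 3.5e-08), and ACSS2, which makes acetyl-CoA from acetate, by 0.60 (SE 0.126, adjusted p = 0.002). R161W and T189M did not overlap for SCD, FADS2, FADS1 or ACSS2. Among genes of fatty acid carriage and storage, 1 of 13 (FABP3) was higher and 3 were lower: FABP5 at -0.47, the lipolysis inhibitor G0S2 at -0.76 and the lipid droplet coat PLIN2 at -0.18. PLIN2 overlapped between the groups, at 37.9, 51.9 and 54 TPM in R161W and 40.5, 42.2 and 61.8 TPM in T189M, and its call was lost in the fit of 6 libraries (adjusted p = 0.17) and without the kind term (adjusted p = 0.99).

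The promoters of HMGCS1 and SCD, from the cholesterol and fatty acid lists, are shown for a motif they share. Each line runs from 250 bases before to 50 after the start of transcription (RefSeq, GRCh38.p14), 5′ to 3′ on the gene's strand, with CCAAT, or ATTGG where it lies on the other strand, in capitals. HMGCS1 is at chr5:43313363-43313662 on the minus strand, for 1 of its 2 listed starts, and SCD is at chr10:100346983-100347282 on the plus strand.
HMGCS1: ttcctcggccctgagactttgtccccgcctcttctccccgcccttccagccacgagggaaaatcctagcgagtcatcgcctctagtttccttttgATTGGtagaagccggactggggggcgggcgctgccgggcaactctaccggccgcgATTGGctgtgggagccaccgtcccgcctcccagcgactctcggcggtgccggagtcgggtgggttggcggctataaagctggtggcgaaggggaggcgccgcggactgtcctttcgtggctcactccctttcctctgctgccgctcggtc
SCD: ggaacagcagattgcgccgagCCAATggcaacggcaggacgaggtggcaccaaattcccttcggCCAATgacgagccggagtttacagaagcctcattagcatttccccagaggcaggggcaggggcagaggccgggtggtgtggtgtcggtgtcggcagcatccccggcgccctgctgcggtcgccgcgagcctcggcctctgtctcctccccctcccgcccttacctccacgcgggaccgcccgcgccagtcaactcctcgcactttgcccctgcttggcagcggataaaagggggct
CCAAT on either strand was found 2 times in each, and in 15 of 18 cholesterol genes and 14 of 18 fatty acid genes with a promoter in the table, against 39.7% of all 27305 genes and 43.4% of those tested here. CCAAT was not particular to these lists: it was found in 20 of 36 ATF4 and 15 of 25 p53 genes. It was in 7 of 13 sterol sensing, 20 of 48 40S and 14 of 49 60S genes. A sterol regulatory element written as TCACNCCAC was found on either strand in 0 of the 18 cholesterol genes, 1 of the 18 fatty acid genes and 1 of 13 sterol sensing genes, and in 1.39% of all genes. A match is a run of letters in this window and not a measured binding site.

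**Figure D4:**
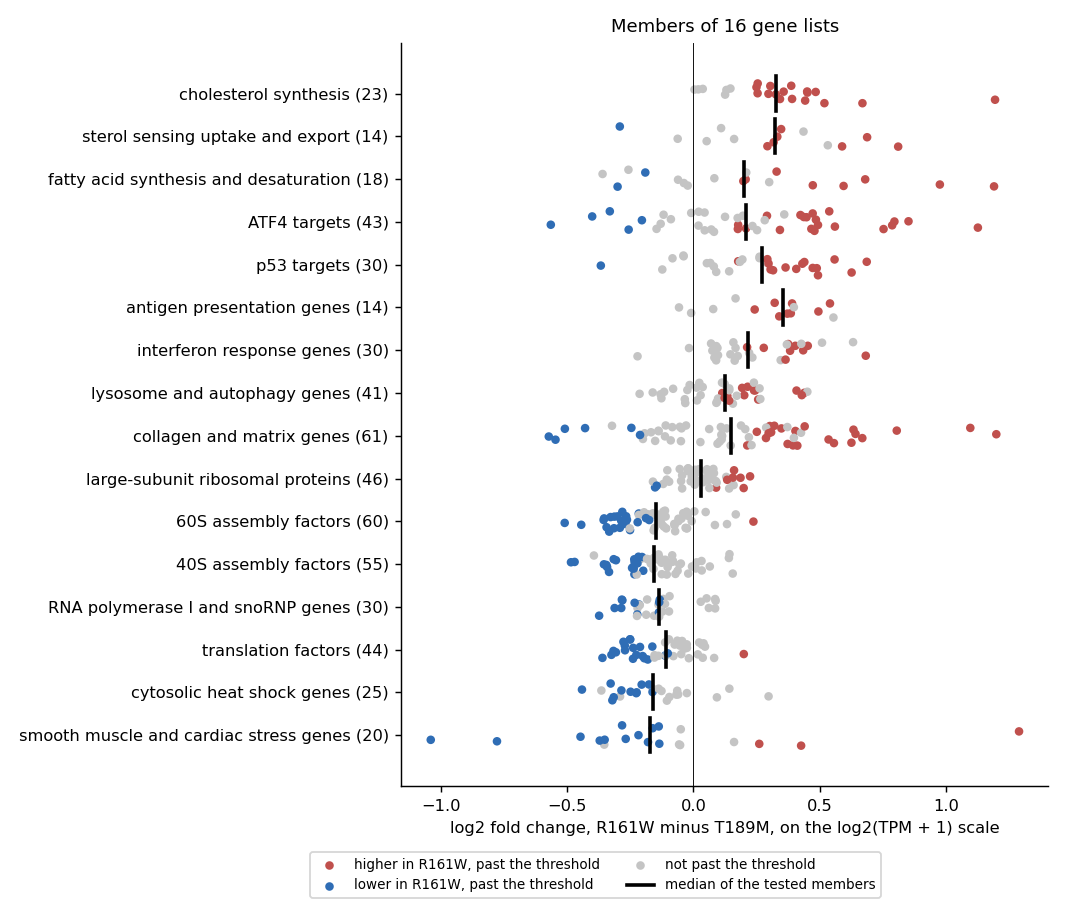
Log2 fold change of R161W minus T189M for each tested member of the gene lists (number of members in brackets), coloured where the adjusted p was under 0.05, with a black line at the median of the list. Medians of the cholesterol, sterol sensing and fatty acid synthesis lists lie to the right of 0, and those of the ribosome assembly lists to the left. They were 0.33 for cholesterol synthesis and -0.15 for 60S assembly factors. Fatty acid synthesis had 11 of 18 members above 0. Fatty acid carriage and storage, with a median of -0.04, is not drawn.

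Assembly factors of the ribosome were called lower in R161W more often than higher. Of 60 assembly factors of the 60S subunit, in which RPL3 sits, 22 were lower in R161W and 1 higher (median -0.15). Of 55 assembly factors of the 40S subunit, 19 were lower and 0 higher (median -0.16). Over all tested genes 7.44% were lower and 6.97% higher. The share lower was 2.77% without the kind term and 2.24% in the fit of 6 libraries. BOP1, of the PeBoW complex that processes pre-rRNA, was at 37.4, 56 and 56.3 TPM in R161W and 54.3, 53.4 and 81.9 TPM in T189M (log2 fold change -0.51, SE 0.0873, adjusted p = 2.4e-04). RRP9, a U3 snoRNP protein, was at 19.1, 23 and 23.9 TPM in R161W and 26.4, 28.3 and 33.7 TPM in T189M (log2 fold change -0.47, SE 0.0674, adjusted p = 2.6e-05). RRP9 did not overlap between the groups, whereas BOP1 overlapped across kinds and its call was lost without the kind term (adjusted p = 0.27). PPAN and PELP1, of the 60S pathway, fell by 0.35 and 0.36 on the log2 scale, without overlap. NLE1 was at -0.44, with its call lost in the fit of 6 libraries (adjusted p = 0.065) and without the kind term (0.3). EMG1, DDX47 and RRP7A, of the 40S pathway, were at -0.48, -0.35 and -0.34, with calls lost without the kind term (adjusted p = 0.58, 0.4 and 0.79). Without the kind term 9 of the 60S and 3 of the 40S factors were lower, in the fit of 6 libraries 10 and 7, and without T189M 3 the 40S count was 8 (12 without R161W 2).

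Of 30 genes of RNA polymerase I and the snoRNPs, 11 were lower and 0 higher (median -0.14). The share lower among all tested genes was 7.44%, or 2.77% without the kind term and 2.24% in the fit of 6 libraries. NOP56, of the box C/D snoRNP, was at 268, 288 and 298 TPM in R161W and 364, 367 and 366 TPM in T189M (log2 fold change -0.37, SE 0.0381, adjusted p = 2.1e-07), without overlap. NCL, nucleolin, was at 954, 680.2 and 650.3 TPM in R161W and 1168, 1098 and 827 TPM in T189M, where the kinds differ more than the groups (log2 fold change -0.28, SE 0.0354, adjusted p = 4.2e-06; adjusted p = 0.058 without the kind term). TAF1A and POLR1G were at -0.31 and -0.29, and both calls were lost in the fit of 6 libraries (adjusted p = 0.12 and 0.15) and without the kind term (0.48 and 0.056). Of 26 snoRNA host genes 8 were lower and 0 higher (median -0.14), among them SNHG8 at -0.45, SNHG3 at -0.40, SNHG12 at -0.34 and SNHG30 at -0.42. SNHG8, SNHG12 and SNHG30 were not called in the fit of 6 libraries (adjusted p = 0.086, 0.15 and 0.19), nor SNHG3 and SNHG30 without the kind term (0.082 and 0.76). In the fit of 6 libraries 2 of the polymerase and snoRNP genes and 3 of the host genes were lower, without the kind term again 2 and 3, and without R161W 1 they were 3 and 5.

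The split of reads between ribosomal protein genes and their many pseudogenes is uncertain. Of 46 of the large subunit, 7 were higher and 2 lower (median 0.03), and of 33 of the small subunit 2 were higher and 1 lower (median 0.02), beside 6.97% higher and 7.44% lower of all genes. Of the large subunit 2 were higher and 0 lower in the fit of 6 libraries. RPL39, a short protein of the exit tunnel, was at 2052, 4159 and 3957 TPM in R161W and 1830, 1797 and 3300 TPM in T189M, with the kinds further apart than the groups (log2 fold change 0.22, SE 0.0563, adjusted p = 0.0083). RPL41, RPL9 and RPL7A rose by 0.20, 0.19 and 0.16, and without the kind term none of these 4 passed (adjusted p = 0.25, 0.14, 0.2 and 0.11), nor RPL9 and RPL7A in the fit of 6 libraries (0.064 and 0.069). Without the kind term 0 ribosomal protein genes of either subunit passed. Shares lower among all genes were 2.24% in the fit of 6 libraries and 2.77% without the kind term. Of 44 translation factors, 19 were lower and 1 higher (median -0.11), with 11 lower in the fit of 6 libraries and 8 without the kind term. EIF4G1, the scaffold of the cap-binding complex, was at 204, 177 and 182 TPM in R161W and 256, 243 and 227 TPM in T189M (log2 fold change -0.32, SE 0.0442, adjusted p = 1.8e-05). ABCE1, which splits ribosomes after termination, was at 74.4, 78.2 and 86.8 TPM in R161W and 107, 91 and 97.4 TPM in T189M (log2 fold change -0.32, SE 0.0653, adjusted p = 0.0013; adjusted p = 0.093 in the fit of 6 libraries). EIF2B5 and EIF2B3, subunits of the exchange factor of eIF2, were at -0.36 and -0.31, with calls lost without the kind term (adjusted p = 0.071 and 0.28) and for EIF2B3 in the fit of 6 libraries (0.084). Of 77 mitochondrial ribosomal proteins 9 were lower and 1 higher (median -0.04; 2 lower in the fit of 6 libraries and 4 without the kind term), with MRPL3 at -0.32 and MRPL20 at -0.28.

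Targets of ATF4, the transcription factor that answers to amino acid and endoplasmic reticulum stress, were higher in R161W more often than lower: 20 of 43 against 5 (median 0.21). NUPR1, a stress-induced nuclear protein, was at 61.6, 67.9 and 66 TPM in R161W and 28.1, 26.6 and 32.6 TPM in T189M (log2 fold change 1.13, SE 0.0939, adjusted p = 8.0e-09). DDIT4, an inhibitor of mTORC1, was at 41.3, 69.9 and 69.8 TPM in R161W and 24.4, 23 and 36.9 TPM in T189M (log2 fold change 0.85, SE 0.0697, adjusted p = 6.3e-09). CBS, of the transsulfuration pathway, was at 7.76, 11.6 and 14.2 TPM in R161W and 4.17, 5.09 and 6.79 TPM in T189M (log2 fold change 0.80, adjusted p = 0.0037). VLDLR, a lipoprotein receptor, rose by 0.79 (SE 0.159, adjusted p = 0.0013). All 4 genes were free of overlap between the groups. INHBE is known as an ATF4 target too. The lists of this paragraph stand beside 6.97% higher and 7.44% lower of all tested genes. These shares were 1.93% and 2.24% in the fit of 6 libraries, and 4.37% and 2.77% without the kind term. The aminoacyl-tRNA synthetases were split, with 6 of 23 higher and 5 lower (median 0.02), and 1 and 1 in the fit of 6 libraries: WARS1 rose by 0.38 and CARS1 by 0.26, while FARSB and FARSA, the 2 chains of the phenylalanine enzyme, fell by 0.40 and 0.35. The call of FARSB was lost without the kind term (adjusted p = 0.21) and those of CARS1 and FARSA in the fit of 6 libraries (0.12 and 0.057). Endoplasmic reticulum chaperones and unfolded protein response genes showed 1 higher and 5 lower of 27 (median -0.01; 1 lower in the fit of 6 libraries and 1 without the kind term), with CALR at -0.18 and CANX at -0.17, neither called without the kind term (adjusted p = 0.089 and 0.13), nor CANX in the fit of 6 libraries (0.18).

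p53 targets were higher as well, 15 of 30 against 1 lower (median 0.27). CDKN1A, the CDK inhibitor p21, was at 107, 149.6 and 143 TPM in R161W and 77.3, 83.3 and 101 TPM in T189M (log2 fold change 0.47, SE 0.0534, adjusted p = 1.0e-06), with no overlap. BBC3, the pro-apoptotic PUMA, was at 4.65, 7.52 and 6.56 TPM in R161W and 3.27, 2.3 and 4.25 TPM in T189M (log2 fold change 0.63, SE 0.181, adjusted p = 0.021; adjusted p = 0.069 in the fit of 6 libraries). SESN2 and FDXR rose by 0.49 and 0.44, and CDKN1A and SESN2 also stand in the ATF4 list. In the fit of 6 libraries 4 of the 30 were higher, beside 1.93% higher and 2.24% lower of all genes in that fit. Without R161W 1 or without T189M 3 the count was 8, where 635 and 623 of all genes were higher. Of 44 genes of G2 and mitosis 7 were higher and 2 lower (median 0.06), and of 51 genes of S phase and replication 3 were higher and 8 lower (median 0.02), beside 6.97% higher and 7.44% lower of all genes. These counts were 2 and 1, and 0 and 2, in the fit of 6 libraries. CDK6, the partner of CCND1, was at 7.12, 7.36 and 7.43 TPM in R161W and 9.21, 8.03 and 10.6 TPM in T189M (log2 fold change -0.37, adjusted p = 0.0013; 0.12 in the fit of 6 libraries). CDKN2A was at 599, 422 and 420.2 TPM in R161W and 469.9, 575 and 306 TPM in T189M, with overlap, and its call was lost in both other fits (adjusted p = 0.12 with 6 libraries and 0.79 without the kind term).

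Cytosolic heat shock genes were lower in R161W, 11 of 25 against 0 higher (median -0.16). HSPA1A, the inducible HSP70, was at 262, 226 and 212 TPM in R161W and 297, 319.7 and 296 TPM in T189M (log2 fold change -0.33, SE 0.0874, adjusted p = 0.013). HSP90AA1, the inducible HSP90, was at 1679, 1711 and 1674 TPM in R161W and 2157, 1889 and 2151 TPM in T189M (log2 fold change -0.32, SE 0.0527, adjusted p = 1.4e-04). Neither overlapped between the groups. HSPA1B was at -0.44, but it shares reads with the near-identical HSPA1A and its call was lost without the kind term (adjusted p = 0.34). CHORDC1, an HSP90 cochaperone, was at -0.32 (adjusted p = 0.0012). Without the kind term 4 of the 25 were lower. Shares lower among all genes were 2.77% in that fit and 2.24% in the fit of 6 libraries. The 8 subunits of the CCT chaperonin, which folds actin and tubulin, showed 5 lower and 0 higher (median -0.16; 1 lower in each of the other fits), with TCP1 at -0.22, CCT3 at -0.20, CCT8 at -0.18 and CCT5 at -0.16. Of these, CCT3, CCT8 and CCT5 lost their call without the kind term (adjusted p = 0.3, 0.37 and 0.12), and TCP1, CCT8 and CCT5 in the fit of 6 libraries (0.09, 0.053 and 0.1). Of 38 proteasome subunits 3 were higher and 7 lower (median -0.05, and 1 and 2 in the fit of 6 libraries), beside 6.97% higher and 7.44% lower of all genes. PSMD2, of the regulatory particle, fell by 0.27, and the higher ones included PSMB8 (0.34) and PSMB9 (0.50), which belong to the immunoproteasome (adjusted p = 0.057 for PSMB9 in the fit of 6 libraries).

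Genes of antigen presentation, which load peptides onto class I molecules, were higher in 8 of 14 and lower in 0 (median 0.36). B2M, the light chain of class I, was at 1187, 1086 and 1002 TPM in R161W and 939.9, 869 and 794 TPM in T189M (log2 fold change 0.39, SE 0.054, adjusted p = 1.8e-05). HLA-B was at 126, 202 and 202 TPM in R161W and 86.8, 90.1 and 137 TPM in T189M (log2 fold change 0.54, SE 0.05, adjusted p = 4.1e-08) and HLA-C rose by 0.39 (SE 0.0882, adjusted p = 0.0036); the HLA genes share sequence, and their split of reads is uncertain. B2M and HLA-C did not overlap between the groups, and HLA-B did so only across kinds. In the fit of 6 libraries 5 of the 14 were higher. The lists of this paragraph stand beside 6.97% higher and 7.44% lower of all tested genes, or 1.93% and 2.24% in the fit of 6 libraries. Of 30 interferon response genes 9 were higher and 0 lower (median 0.22), and 2 were higher in the fit of 6 libraries. IFITM3, which blocks viral entry, was at 302, 357 and 342.9 TPM in R161W and 238, 264 and 249.5 TPM in T189M (log2 fold change 0.40, SE 0.0601, adjusted p = 4.2e-05). IFI6 and IFIT3 rose by 0.45 and 0.44, and IFIT3 was not called in the fit of 6 libraries (adjusted p = 0.071). Cytokine and NF-kB genes were split, 4 of 21 higher and 5 lower (1 and 3 in the fit of 6 libraries): IL32 was at 54.3, 36.6 and 39.1 TPM in R161W and 31.2, 32.8 and 23.5 TPM in T189M (log2 fold change 0.69, adjusted p = 1.3e-04), above the other 24 libraries in R161W, and IL11 at 17.3, 28.3 and 28.7 TPM in R161W and 28.8, 28.8 and 37.6 TPM in T189M (log2 fold change -0.49, adjusted p = 0.002), with its call lost without the kind term (adjusted p = 0.12).

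Of 61 collagen and matrix genes, 22 were higher in R161W and 6 lower (median 0.15). COL3A1, a fibrillar collagen, was at 247, 337 and 358 TPM in R161W and 158, 153 and 218 TPM in T189M (log2 fold change 0.67, SE 0.0557, adjusted p = 8.0e-09). LUM, a proteoglycan that binds collagen fibrils, was at 65, 69.3 and 68.4 TPM in R161W and 44.3, 36.7 and 45.1 TPM in T189M (log2 fold change 0.64, SE 0.0712, adjusted p = 7.4e-07). COL11A1 and LAMA5 rose by 1.10 (SE 0.15, adjusted p = 1.3e-05) and 0.81 (SE 0.215, adjusted p = 0.013). None of these 4 overlapped between the groups, and 14 of the 61 were higher in the fit of 6 libraries. MMP2, the gelatinase, was at 341, 340.2 and 354 TPM in R161W and 207, 206 and 206 TPM in T189M (log2 fold change 0.75, SE 0.0409, adjusted p = 1.2e-11), and TIMP3, an inhibitor of metalloproteinases, at 25.6, 25.1 and 28.2 TPM in R161W and 43.1, 45.2 and 48.3 TPM in T189M (log2 fold change -0.78, SE 0.058, adjusted p = 9.8e-10). The 3 libraries of a group lay close together for both of these genes. Over the whole list of metalloproteinases and inhibitors 5 of 28 were higher and 6 lower, and 2 and 4 in the fit of 6 libraries. The lists of this paragraph stand beside 6.97% higher and 7.44% lower of all tested genes, or 1.93% and 2.24% in the fit of 6 libraries. Fibroblast markers moved both ways, 5 of 13 higher and 1 lower: FAP rose by 0.61 and DCN by 0.63, and VIM, the most abundant, was at 2158, 2589 and 2632 TPM in R161W and 2911, 2869 and 3312 TPM in T189M (log2 fold change -0.38, SE 0.0314, adjusted p = 6.7e-09). The part of the marker levels in the matrix result was not tested.

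Smooth muscle and cardiac stress genes, many of them targets of SRF and YAP, were lower in 12 of 20 and higher in 3 (median -0.17), so that ACTA2 went against most of its list. ANKRD1, a cardiac ankyrin repeat protein, was at 2.87, 4.01 and 3.53 TPM in R161W and 7.96, 7.58 and 7.93 TPM in T189M (log2 fold change -1.04, SE 0.129, adjusted p = 3.7e-06). CCN2, a matricellular protein, was at 43, 42.9 and 46.4 TPM in R161W and 71.8, 69.8 and 80.3 TPM in T189M. CCN1, of the same family, was at 316, 336 and 331 TPM in R161W and 424, 400.2 and 469 TPM in T189M. Their log2 fold changes were -0.78 (SE 0.0567, adjusted p = 8.7e-10) and -0.45 (SE 0.0383, adjusted p = 1.3e-08), and none of the 3 genes overlapped. In the fit of 6 libraries 4 of the 20 were lower, without the kind term 5, and without T189M 3 there were 7. Over all tested genes 6.97% were higher and 7.44% lower, and 1.93% and 2.24% in the fit of 6 libraries. The share lower was 2.77% without the kind term. The activin, follistatin and TGF-beta list held 5 higher and 7 lower of 23 (3 higher in the fit of 6 libraries). Its lower genes included all 3 tested ID genes, which encode inhibitors of differentiation and respond to BMP signals: ID1 was at 23.5, 31.8 and 29.1 TPM in R161W and 42.3, 48.7 and 59.3 TPM in T189M (log2 fold change -0.91, SE 0.0763, adjusted p = 9.4e-09). ID2 was at 37.6, 46.7 and 46.8 TPM in R161W and 73.4, 69.2 and 89.2 TPM in T189M (log2 fold change -0.90, SE 0.0668, adjusted p = 9.8e-10), below all other 24 libraries in R161W (60 to 102 TPM). ID3 was at 88.5, 129.5 and 129.8 TPM in R161W and 147, 174 and 268 TPM in T189M (log2 fold change -0.93, SE 0.0792, adjusted p = 1.0e-08). ID1, ID2 and ID3 were free of overlap, and INHBE, given above, moved the other way.

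Immediate early genes showed 9 lower and 2 higher of 28 (median -0.14), with 5 lower in the fit of 6 libraries and 5 without the kind term. FOSL1, a partner of JUN in AP-1, was at 104, 73.6 and 79.3 TPM in R161W and 160, 177 and 116 TPM in T189M (log2 fold change -0.63, SE 0.0616, adjusted p = 1.1e-07), and IER3, a stress-induced survival gene, was at -0.67 (SE 0.0557, adjusted p = 8.7e-09). JUND rose by 0.60 and EGR1 by 0.34, both with calls lost in the fit of 6 libraries (adjusted p = 0.068 and 0.068) and EGR1 also without the kind term (0.33). Adhesion and integrin genes were lower in 7 of 25 and higher in 1 (3 lower without the kind term), with ALCAM at -0.50 and CDH13 at -0.46 (adjusted p = 0.39 without the kind term). Growth factors and receptors were split, 7 higher and 9 lower of 33 (4 lower without the kind term): IGFBP7 rose by 0.62 and IGFBP6 by 0.59, and NRG1, the neuregulin ligand of ERBB receptors, fell by 0.57. Wnt genes changed in 5 of 24, 2 higher and 3 lower (0 lower without the kind term), with the inhibitor DKK1 at -0.46 (adjusted p = 0.59 without the kind term). The counts of the lists in this paragraph stand beside 6.97% higher and 7.44% lower of all tested genes. These shares were 1.93% and 2.24% in the fit of 6 libraries, and 4.37% and 2.77% without the kind term.

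Lysosome and autophagy genes were higher in 13 of 41 and lower in 0 (median 0.12), with 3 higher in the fit of 6 libraries and 4 without the kind term. GABARAPL1, which conjugates to autophagosome membranes, was at 41.5, 39.4 and 39.7 TPM in R161W and 32.7, 30.1 and 29.5 TPM in T189M (log2 fold change 0.43, SE 0.0617, adjusted p = 2.7e-05). Glycolysis and hypoxia genes were higher in 12 of 38 and lower in 4 (median 0.14; 1 and 0 lower in the other fits). BNIP3, a mitophagy receptor induced in hypoxia, was at 118, 174 and 168 TPM in R161W and 78.2, 86.3 and 114 TPM in T189M (log2 fold change 0.55, SE 0.038, adjusted p = 3.1e-10), and BHLHE40, ENO2 and P4HA1 rose by 0.61, 0.50 and 0.44. BNIP3, BHLHE40, ENO2 and P4HA1 had the same direction in both kinds, which the rule for naming list members required. Of all tested genes 6.97% were higher and 7.44% lower, beside which each list of this paragraph stands. These shares were 1.93% and 2.24% in the fit of 6 libraries, and 4.37% and 2.77% without the kind term. Nuclear genes of oxidative phosphorylation showed 5 higher and 10 lower of 76 (median 0.02), but 1 and 1 in the fit of 6 libraries and 0 and 1 without the kind term. The 13 mitochondrially encoded mRNAs showed 2 higher and 0 lower, MT-CO3 at 0.22 and MT-ND3 at 0.18, neither called without the kind term (adjusted p = 0.58 and 0.99), nor MT-ND3 in the fit of 6 libraries (0.1). NRF2 antioxidant genes were lower in 6 of 29 and higher in 2 (0 lower without the kind term), with NQO1 at -0.35 and AKR1B1 at -0.34, both lost without the kind term (adjusted p = 0.35 and 0.94), and AKR1C3 at 0.57. Of 29 tested histone genes 5 were higher and 1 lower (median 0.27), with 3 higher without the kind term. H2BC12 was at 57.4, 87.2 and 90.05 TPM in R161W and 29.1, 33.6 and 43.9 TPM in T189M (log2 fold change 0.97, SE 0.107, adjusted p = 6.6e-07), and histone transcripts mostly lack a polyA tail, so that polyA libraries hold a part of them.

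TXNIP, an arrestin that restrains glucose uptake, was the gene that differed most between shRPL3 and shScramble among those named, with a log2 fold change of 5.90. In the present comparison it was at 43.3, 42.5 and 48 TPM in R161W and 62.9, 65.8 and 86 TPM in T189M (log2 fold change -0.78, SE 0.0786, adjusted p = 1.7e-07), lower in R161W in both kinds and without overlap. Its promoter is shown for the paired motif read by the glucose-sensing factors MondoA and ChREBP. It runs over chr1:145996530-145996829 on the minus strand for 1 of its 2 listed starts (RefSeq, GRCh38.p14), with the match, a pair of CACGNG parted by 5 bases, in capitals.
TXNIP: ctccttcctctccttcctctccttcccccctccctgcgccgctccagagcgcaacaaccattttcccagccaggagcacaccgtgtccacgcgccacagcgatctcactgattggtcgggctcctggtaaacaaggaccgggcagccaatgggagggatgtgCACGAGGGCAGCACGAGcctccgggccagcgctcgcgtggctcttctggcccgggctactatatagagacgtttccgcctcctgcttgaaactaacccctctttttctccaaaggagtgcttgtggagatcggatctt
The motif, searched on both strands, was found in 20 of 27305 genes (0.0733%), 16 of them tested here, and in 0 genes of the lipid, assembly factor, ATF4 and p53 lists. In the list of TXNIP, its arrestin relatives and MondoA-MYC network genes, 2 of 15 were higher (MXD3 at 0.44 and MXI1 at 0.37) and 2 lower, TXNIP and KLF10 (-0.49). The call of MXD3 was lost in the fit of 6 libraries (adjusted p = 0.11) and without the kind term (0.065). The list stands beside 6.97% higher and 7.44% lower of all tested genes.

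Since RPL3 differed between R161W and T189M, the genes that the knockdown changed were looked up in the comparison. The groups also differ in the substitution and are separate selected pools. These differences cannot be told apart here, and the part of RPL3 was not tested. The contrast of shRPL3 with shScramble shares no library with that of R161W with T189M, although the spread and the kind term were estimated in 1 model for both. It called 3481 genes higher (24.1%) and 3547 lower (24.6%) in shRPL3. Of the 3481, 174 (5.00%) were higher in R161W and 478 (13.7%) lower, and of the 3547, 510 (14.4%) were higher and 235 (6.63%) lower, beside 6.97% and 7.44% of all genes. Read from the other list, 50.7% of the 1005 genes higher in R161W were lower in shRPL3 and 17.3% higher, and 44.5% of the 1073 genes lower in R161W were higher in shRPL3 and 21.9% lower. Of 259 genes lowered by at least 1 on the log2 scale in shRPL3, 74 (28.6%) were higher in R161W and 15 (5.79%) lower, and of 156 raised as much, 5 (3.21%) were higher and 27 (17.3%) lower. With the 6-library fit the shares fell to 1.12% and 4.08% of the genes higher in shRPL3 and to 4.40% and 2.42% of those lower, beside 1.93% higher and 2.24% lower of all genes in that fit. The share of genes lower in both contrasts, 2.42%, was thus above that of all genes there, whereas 6.63% was below 7.44% with all libraries. Without T189M 3 the 4 shares were 3.12% and 8.66%, and 8.85% and 3.79%. That fit called 623 genes higher and 626 lower of all 14383 tested. Without R161W 1 the first share was 2.68%, where 635 genes were higher of all 14445 tested.

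The lists give the same values side by side. For cholesterol synthesis the median was -1.45 in shRPL3 minus shScramble, with 21 of 23 lower, and 0.33 in R161W minus T189M. For 60S assembly factors it was 0.39, with 53 of 60 higher, and -0.15, and for 40S assembly factors 0.46, with 48 of 55 higher, and -0.16. The heat shock list had medians of -0.15 and -0.16, and so was negative in both. For ribosomal proteins of the large subunit the knockdown median was 0.39, with 42 of 46 higher, and that of R161W minus T189M 0.03. ATF4 targets had -0.11 and 0.21, and p53 targets -0.10 and 0.27. FABP3 was at -3.97 in the knockdown and 1.48 here, SCD at -2.49 and 1.19, INSIG1 at -2.35 and 0.69, and IL24 at 2.73 and -0.98. SCG5 was at 2.51 and -0.69, with its call lost in the fit of 6 libraries (adjusted p = 0.092) and without the kind term (0.1), and OLR1 at -2.10 and 0.49 (adjusted p = 0.16 with 6 libraries). Among the 16 genes already named for the knockdown, MROH6, GNB3, HSPA6 and PIR did not pass here, at -0.06, -0.34, -0.29 and 0.12 (adjusted p = 0.88, 0.22, 0.22 and 0.64).

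**Figure D5:**
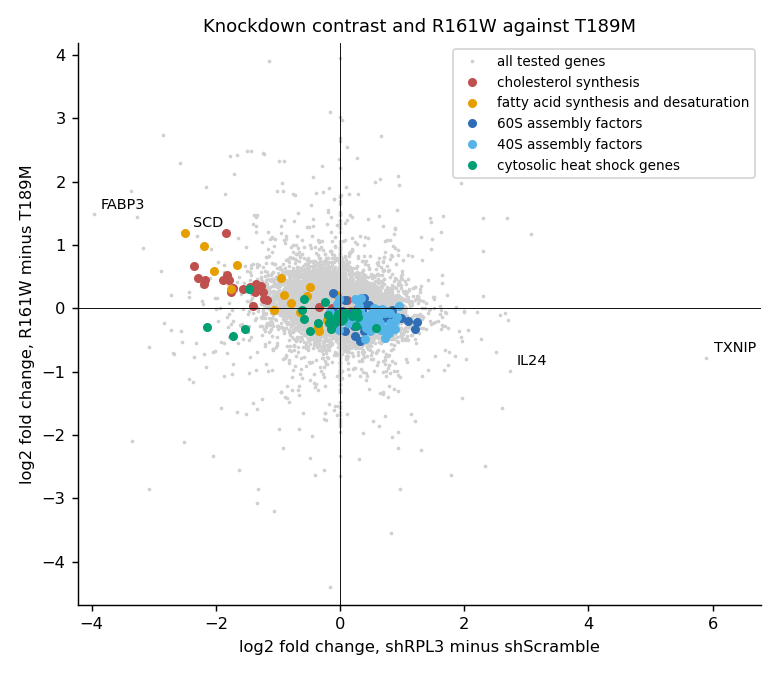
Log2 fold change of shRPL3 minus shScramble (horizontal axis) and of R161W minus T189M (vertical axis) for the tested genes in grey, with members of the listed groups in colour. Cholesterol genes lie at the upper left, with medians of -1.45 and 0.33, assembly factors to the right of 0 and mostly below the horizontal line, and heat shock genes mostly below it on both sides of 0.

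Nuclear RNA was sequenced without polyA selection from 2 libraries each of R161W and T189M. The rRNA regions held 11401685 and 9588340 counts for R161W and 11474994 and 12931401 for T189M. The other 8 nuclear libraries were of RPL3L-WT, shRPL3, G27D and D308N, with none of shScramble. The spacers of the rRNA precursor, which are cut away as rRNA matures, were set against the mature 28S region of the same library. The 5′ external spacer was at 3.66% and 3.51% of 28S in R161W and 2.43% and 2.79% in T189M. Internal spacer 1, which parts 18S from 5.8S, was at 2.42% and 2.37% in R161W and 1.57% and 1.60% in T189M. The 3′ external spacer, the least counted, was at 0.0465% and 0.0441% in R161W and 0.0277% and 0.0287% in T189M. In these 3 spacers both R161W libraries were above both T189M libraries, with log2 differences of 0.46, 0.60 and 0.68. Internal spacer 2, which parts 5.8S from 28S, overlapped, at 3.65% and 3.55% in R161W and 3.34% and 3.76% in T189M. Mature 18S was at 39.1% and 41.3% of 28S in R161W and 38.5% and 37.1% in T189M, and 5.8S at 0.642% and 0.649% and at 0.536% and 0.626%. An exact two-sided permutation test of 2 against 2 cannot go below p = 0.333, which was reached for all ratios but that of internal spacer 2 (adjusted p = 0.40), so the design cannot call any of them. The other 8 nuclear libraries ranged from 2.47% to 6.02% for the 5′ spacer, from 1.41% to 3.70% for internal spacer 1 and from 0.0275% to 0.150% for the 3′ spacer, and both groups lay within those ranges except that T189M 1 was below the first of them. Mature 18S over 28S was 40.5% to 50.6% in the other 8, and of the 4 libraries here only R161W 2 reached that range.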

How the data were processed

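PolyA RNA from whole cells and nuclear RNA were made into TruSeq libraries, per the labels' protocols, the nuclear ones without polyA selection or rRNA depletion. Tools listed in the submitters' processing notes are kallisto, bedtools, Bowtie and bcl2fastq 2.19, with no order; which index and genome build were used is not given in the sources used here. Gene values are TPM as the authors deposited them, with the same total in each library, and the rRNA regions hold deposited counts; 0 columns were unmatched to a label. Of 60612 TPM entries 6 were constructs, left out of the tests.

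After adding a pseudocount of 1 and taking log2, genes with a mean of at least 1 TPM over the 6 libraries were fitted with limma (eBayes, trend and robust options on) over all 30 libraries, with 10 groups and a term for the library kind, two-sided. P-values were adjusted by Benjamini-Hochberg over the genes tested, threshold 0.05. The kind came from the widest gap in the first principal component of 37 ribosomal protein pseudogenes. All fold changes refer to log2(TPM + 1), where low genes change less than in TPM. Gene lists are described by counts and medians, with no test. Nuclear ratios were compared by exact permutation, since 7 regions are too few for a count model. The fit was also run on simulated data with independent noise and an additive kind shift. Such data cannot show how technical replicates or differences between pools act on the calls.

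The members, lists and comparisons were chosen with earlier results of these data known. Named were RPL3 and RPL3L, the 15 genes each way with the largest fold change among called genes with at least 5 TPM in the higher group, a protein-coding or named non-coding symbol and R161W on 1 side of T189M in each kind, up to 4 such members of each list, and 16 genes named earlier for the knockdown. Alternatives covered the kind term, the libraries fitted, pseudocount, filter, scaling, replicate block and each library left out. Not every gene under the rule is discussed, and some are not reported here. Software: limma 3.58.1 in R 4.3.3; scipy 1.17.1, pandas 2.3.3, numpy 2.4.6 and matplotlib 3.10.9 in Python 3.11.15.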

Additional observations from a re-analysis of the deposited data

How the results depend on the processing

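The count of higher and of lower genes was within 1.5 times of 1005 and 1073 with a pseudocount of 0.1 or 5, with a stricter filter or none, with median-ratio scaling, and with the replicate number as a block beside the kind term. It was 630 and 400 without the kind term, 279 and 323 with the 6 libraries and the kind term, 24 and 13 with the 6 libraries and no kind term, 357 and 493 with libraries of the first kind only, and 7 and 5 with those of the second. Leaving out each of the 6 libraries gave 623 to 851 and 626 to 956, and leaving out shRPL3 3, an alternative added after seeing the data, gave 1005 and 1069. Whether the same replicate number pairs the samples could not be decided. Deviations from the group means correlated by 0.318, -0.199 and 0.314 over genes for numbers 1, 2 and 3. The kind was not removed from them, and R161W 2 and T189M 2 are of different kinds. Libraries of the same kind with different numbers correlated by 0.274 (R161W 1 and T189M 2) and 0.329 (R161W 2 and T189M 3). With the replicate block on the 6 libraries and no kind term limma called 0 and 1, with 1256 higher and 700 lower at an unadjusted p under 0.05. The 17 genes that differed between the kinds became 4 with a pseudocount of 0.1, 1 with a mean TPM of at least 5 and 572 with no filter.

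In the fit of 6 libraries the lists held 11 cholesterol, 5 fatty acid, 10 60S, 7 40S, 2 polymerase I and snoRNP, 3 snoRNA host, 4 p53, 5 antigen presentation, 4 smooth muscle and 14 matrix genes in their direction. Without the kind term there were 9 60S, 3 40S, 2 polymerase I and snoRNP, 3 snoRNA host, 4 heat shock and 5 smooth muscle genes. Shares of all genes higher and lower were 1.93% and 2.24% in the fit of 6 libraries. They were 4.37% and 2.77% without the kind term. Leave-one-out ranges were 4 to 7 for sterol sensing, 8 to 16 for 40S, 3 to 12 for polymerase I and snoRNP, 5 to 9 for snoRNA hosts, 8 to 14 for p53 and 7 to 12 for smooth muscle genes. Of genes higher in shRPL3, 1.12% were higher and 4.08% lower in R161W with the 6 libraries, and 3.21% higher with the knockdown limit of 1; of those lower, 4.40% and 2.42%, and 28.6% higher with that limit. Leaving out 1 of the 6 libraries gave 2.68% to 4.20%, 8.66% to 12.7%, 8.85% to 11.7% and 3.79% to 5.71%, and leaving out shRPL3 3 gave 4.97%, 14.3%, 14.5% and 6.61%. Without shRPL3 3 there were 18 40S and 15 p53 genes. Nuclear internal spacer 1 over all regions differed by 0.56.

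Of 190 named genes, 131 kept their direction and their side of the threshold with the 6 libraries and 127 without the kind term. PLIN2 turned to 0.0031 and MT-ND3 to -0.0055 in the 3 fits without the kind term, and MROH6 to 0.21 in the first kind, 0.23 without R161W 1 and 0.012 without T189M 1, the lowest of its leave-one-out values being -0.17. The cause was not tested; fits with fewer libraries also have fewer degrees of freedom. Leaving out shRPL3 3 changed the call of RPL3L and of COX5B (adjusted p = 0.052).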

Other observations

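A few genes outside the naming rule were looked at after their values were seen. Marker counts below stand beside 6.97% higher and 7.44% lower of all tested genes. KRT14, a keratin of basal epithelia, was at 5.35, 5.09 and 4.0 TPM in R161W and 1.36, 0.901 and 0.922 TPM in T189M (log2 fold change 1.55, SE 0.16, adjusted p = 2.4e-07), and the other 24 whole-cell libraries held at most 2.96 TPM. Of 9 epithelial markers 3 of the 4 tested were higher in R161W, and the list summed to 314 to 388 TPM in R161W and 245 to 304 TPM in T189M, mostly KRT18. GATA4, a cardiac transcription factor, was at 1.2, 0.823 and 1.28 TPM in R161W and 3.82, 3.13 and 3.74 TPM in T189M (log2 fold change -1.07, SE 0.158, adjusted p = 3.9e-05), and all 3 R161W libraries lay below the other 24 (1.48 TPM at the lowest). Among the 6 tested cardiomyocyte markers 3 were lower and 0 higher, with GJA1 at -0.30 and ATP2A2 at -0.21, the latter not called in the fit of 6 libraries (adjusted p = 0.093) or without the kind term (0.81). POSTN, a matrix protein of activated fibroblasts, was at 1.58, 2.09 and 1.91 TPM in R161W and 0.35, 0.162 and 0.206 TPM in T189M (log2 fold change 1.20, SE 0.13, adjusted p = 4.7e-07).

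Of 3 complement genes picked in the same way, C1R was at 85.2, 108 and 115 TPM in R161W and 44.3, 46.7 and 52.6 TPM in T189M, C1S at 28.2, 30.1 and 31.5 TPM in R161W and 14.8, 19.2 and 15.9 TPM in T189M and CFB at 11.6, 13.2 and 12.3 TPM in R161W and 5.29, 5.61 and 6.6 TPM in T189M, with log2 fold changes of 0.97, 0.82 and 0.94 (adjusted p = 2.0e-10, 2.0e-06 and 1.3e-05, limma). CA9, a carbonic anhydrase induced in hypoxia, was at 2.2, 5.87 and 6.04 TPM in R161W and 1.07, 0.473 and 1.28 TPM in T189M (log2 fold change 1.29, SE 0.244, adjusted p = 6.7e-04). SMAD7, an inhibitor of TGF-beta and BMP signals, was at 7.18, 9.23 and 8.66 TPM in R161W and 13.5, 14.6 and 13.3 TPM in T189M (log2 fold change -0.68, SE 0.106, adjusted p = 6.7e-05). The pseudogene SNRPCP4 was at 3.77, 5.68 and 5.78 TPM in R161W and 0, 0 and 0 TPM in T189M and at 0.251 TPM at most in the other 24 libraries. Of genes near MUSK and USP37, LPAR1 was at 13.5, 12.4 and 13 TPM in R161W and 12.8, 12.9 and 14.3 TPM in T189M, and CNOT9 was at 54, 60.8 and 59.3 TPM in R161W and 59.2, 61.8 and 72.2 TPM in T189M (log2 fold change -0.22, adjusted p = 0.0064, and 0.094 in the fit of 6 libraries).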
